A study of Mus musculus with 15 samples.

Results

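Levels of 6 noncoding RNA genes, Rn18s-rs5, Rn7sk, Rmrp, Rpph1, Malat1 and Neat1, were described in the blood of mice bearing oral tumors. They were taken by symbol as a set of abundant structural RNAs, and were found in the tables under 7 of the 55416 gene identifiers, since Rmrp has 2. The set was chosen on CPM levels of these same libraries, above all on the split of Rn18s-rs5 between libraries, so its levels are given as a description. The name "abundant" held for Rn18s-rs5, Malat1 and Neat1, which ranked 3, 48 and 187 by mean level among all identifiers. Rn7sk ranked 8214, but this rank takes no account of gene length. Most of its bases have an exact copy elsewhere, where reads may not have been assigned, so its abundance could not be judged. Rmrp and Rpph1 had 0 counts in each of the 15 libraries, and since reads over them may not have been assigned, their abundance could not be judged.

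Whole blood RNA was sequenced from 15 C57BL/6 mice, 5 per group, with 1 library a mouse. The labels describe 4MOSC1 tumors, an oral squamous cell carcinoma line of C57BL/6 origin carrying a tobacco-like mutational signature, grown in the tongue for 10 days. The early ND and late ND groups received 2 doses of αCTLA-4, an antibody that blocks an inhibitory T cell receptor, and a neck dissection (ND), the surgical removal of the neck's draining lymph nodes, timed early or late. The untreated group received neither antibody nor surgery, so antibody and surgery cannot be told apart against it. The study's methods give female mice a few weeks old for this tumor model. Its sources differ on whether the late ND mice had been operated on by the time they were bled, so "late ND" names the group only. Blood came from cheek bleeds, and the kit used for the libraries is not given in the sources used here. Gene counts ranged from 5527108 to 13924361 per library. The erythroid marker list (11 of 12 genes found) summed to between 329959 and 632095 CPM, the count per 1000000 gene counts of a library, in untreated mice, 392183 and 659454 CPM after early ND and 152914 and 299027 CPM after late ND. The neutrophil list (11 of 11 found) summed to 2629 to 15773 CPM, 1665 to 8173 CPM and 11666 to 20337 CPM in the same order. Over the 15 libraries the monocyte list spanned 267 to 1753 CPM, the T cell list 175 to 636 CPM, the B cell list 763 to 3986 CPM and the platelet list 1184 to 3818 CPM, with Gp1bb at 0 in all libraries. A list of sebaceous and skin cell genes spanned 20.1 to 1143 CPM. In bulk blood, fewer cells of a type and less RNA per cell cannot be told apart.

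The 18S RNA counted under Rn18s-rs5 is the RNA core of the small ribosomal subunit and is transcribed by RNA polymerase I. RNA polymerase III makes 7SK (Rn7sk), which holds the elongation factor P-TEFb inactive, and the catalytic RNAs of RNase MRP (Rmrp) and RNase P (Rpph1), which process ribosomal RNA and transfer RNA precursors. Malat1 and Neat1 are long nuclear RNAs made by RNA polymerase II. Malat1 accumulates in nuclear speckles, which are rich in splicing factors, and Neat1 is the scaffold of paraspeckles. Mature 18S and 7SK carry no poly(A) tail, so the level of such RNAs in a library depends on how it was prepared.

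Reads of 3 small members could be lost to a second identifier or to a copy of the sequence, and their sequences are shown because most of their bases are shared in this way. Rmrp is annotated on GRCm39 at chr4:43492788-43493058, minus strand (ENSMUSG00000088088, 271 bases), inside a second identifier of the same name and strand (ENSMUSG00000115420, 281 bases). All 271 bases were therefore shared by 2 identifiers on 1 strand. On the other strand, 124 of them lay opposite an exon of Ccdc107. Rpph1 lies at chr14:51044906-51045224, minus strand (ENSMUSG00000092837, 319 bases). Of its bases, 268 lay within exons of Ccnb1ip1 on the same strand and 277 opposite exons of Parp2. By default HTSeq-count reads the strand and sets aside a read that overlaps exons of 2 genes on the same strand, so a count of 0 at these loci limits the reads assigned and not the RNA present. Exons on the opposite strand do not set reads aside under that default. The settings used are not given in the sources used here. Reads set aside for this reason anywhere in the genome made up 1.19% to 3.03% of uniquely aligned reads per library. Reads assigned to genes made up 43.6% to 48.0% of uniquely aligned reads, and why the remainder fell on no gene was not tested. In the sequences below, capitals mark the bases opposite Ccdc107 in Rmrp and the bases outside exons of Ccnb1ip1 in Rpph1, whose first 300 bases are given.
Rmrp: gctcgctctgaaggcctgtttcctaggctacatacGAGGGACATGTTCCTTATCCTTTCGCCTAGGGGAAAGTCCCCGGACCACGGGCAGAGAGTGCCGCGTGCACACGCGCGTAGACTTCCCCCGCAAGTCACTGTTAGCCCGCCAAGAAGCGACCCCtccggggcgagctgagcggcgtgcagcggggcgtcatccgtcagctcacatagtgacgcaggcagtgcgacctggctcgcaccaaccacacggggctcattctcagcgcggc
Rpph1: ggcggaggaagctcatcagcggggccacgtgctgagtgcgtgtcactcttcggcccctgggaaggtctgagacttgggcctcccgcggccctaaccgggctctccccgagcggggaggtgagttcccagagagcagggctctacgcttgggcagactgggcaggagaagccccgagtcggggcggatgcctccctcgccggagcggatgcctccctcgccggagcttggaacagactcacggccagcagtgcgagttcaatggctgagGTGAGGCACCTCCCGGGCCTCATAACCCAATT

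Counts of 0 for Rmrp and Rpph1 allow up to 0.215 to 0.543 CPM of assigned reads per library (3 counts of the total, counting error only). Their neighbors were counted. Ccdc107, a coiled-coil domain protein gene, spanned 2.35 to 17.1 CPM and Parp2, a DNA repair enzyme, 9.21 to 40.1 CPM. Ccnb1ip1, which shares the strand of Rpph1, had 1 count in 1 library and 0 in the other 14.

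Rn7sk (ENSMUSG00002076161, 331 bases, chr9:78082585-78082915, minus strand) overlapped no other annotated gene, but much of its sequence is not unique. Its bases 1 to 241 had an exact copy at chr15:93132244-93132484 (Gm54754), and bases 5 to 239 had another at chr2:7080987-7081221, within the annotated span of Celf2. Reads that align equally well to several places are not assigned by default. Their counter, taken over the whole genome, was 44.1% to 75.2% of that counter plus uniquely aligned reads per library. A read can enter the counter once per alignment, so this need not be a share of reads. Only the last 90 bases, in capitals below, lay outside the exact copy on chromosome 15. Gm54754 itself had 3 counts over all 15 libraries.
Rn7sk, bases 32 to 331: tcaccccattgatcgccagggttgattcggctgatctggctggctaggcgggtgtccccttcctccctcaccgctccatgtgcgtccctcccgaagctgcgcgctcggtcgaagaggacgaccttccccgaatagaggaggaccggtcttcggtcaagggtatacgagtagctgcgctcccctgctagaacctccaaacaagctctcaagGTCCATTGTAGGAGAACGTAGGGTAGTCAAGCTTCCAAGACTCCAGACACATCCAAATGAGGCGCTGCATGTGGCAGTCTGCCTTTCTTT

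**Figure D1:**
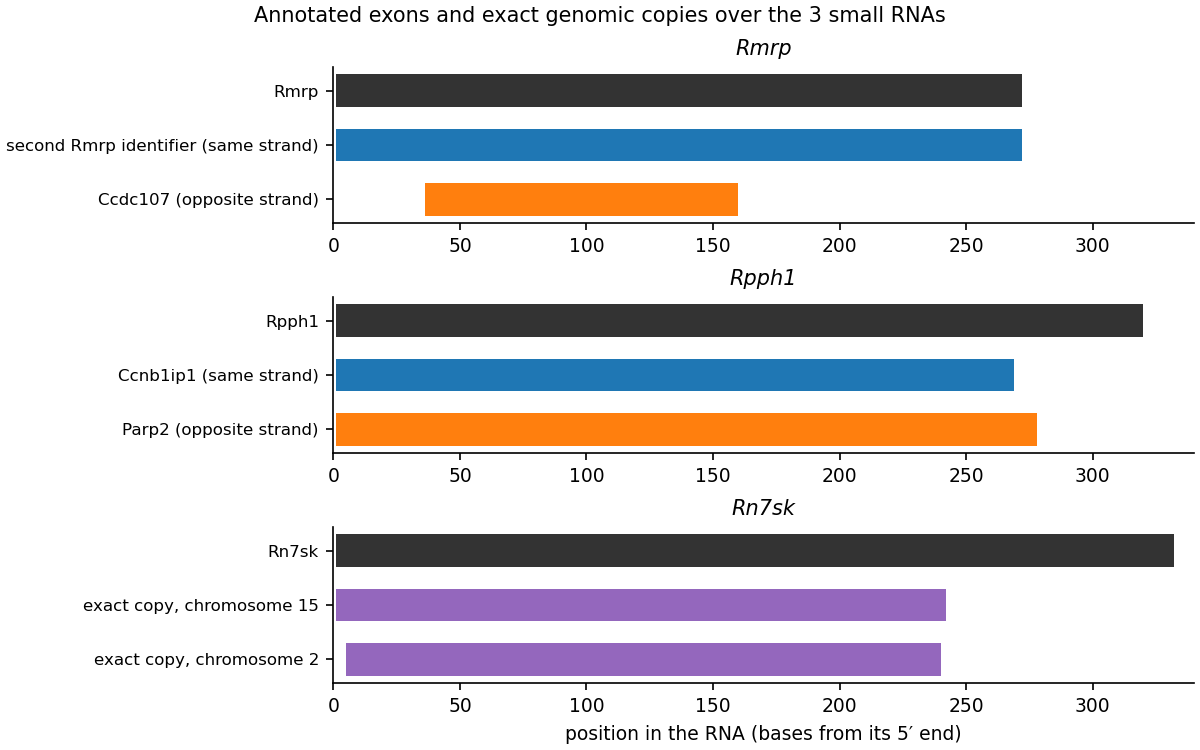
Maps of Rmrp, Rpph1 and Rn7sk, with the position in bases from the 5′ end on the x axis. Black bars are the RNAs themselves, blue bars exons of other identifiers on the same strand, orange bars exons on the opposite strand, and purple bars exact copies elsewhere in the genome. All of Rmrp and the first 268 bases of Rpph1 are shared on the same strand, and the first 241 bases of Rn7sk are copied.

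The other 3 members were longer, and little of their sequence had an exact copy of 100 bases or more elsewhere in the GRCm39 assembly. Sequence missing from the assembly was not searched, so further copies of them are not excluded. Rn18s-rs5 (ENSMUSG00000119584, 1849 bases, chr17:40157244-40159092, plus strand) had 1 exact copy of 100 bases or more, its first 139 bases on chromosome 16. Malat1 (ENSMUSG00000092341, 7886 exon bases, chr19:5845717-5853602, minus strand) had exact copies of 101 to 107 bases on chromosomes 2, 8 and 10. These fell between its bases 1492 and 1606, and the stretch is shown with those bases in capitals. It lies within the part of Malat1, bases 1182 to 1634, that is annotated on the opposite strand as Gm37376.
Malat1, bases 1472 to 1626: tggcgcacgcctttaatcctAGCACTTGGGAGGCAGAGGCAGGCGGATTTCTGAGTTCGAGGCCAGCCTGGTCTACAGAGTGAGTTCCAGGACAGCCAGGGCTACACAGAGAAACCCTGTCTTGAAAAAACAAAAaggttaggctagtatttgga

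Neat1 (ENSMUSG00000092274, 22397 exon bases, chr19:5874736-5897132, minus strand) had no exact copy of 100 bases or more. The longest run of A in the members was 12 bases in Malat1, 7 in Neat1, 6 in Rn18s-rs5, 3 in Rn7sk and Rmrp and 2 in Rpph1. These runs are shown because oligo(dT), which captures poly(A) tails, can also bind internal runs of A, and the 3′ end of 18S is shown because mature 18S carries no tail. GC content ran from 43.8% in Malat1 to 67.1% in Rpph1.
Malat1, bases 7552 to 7611, longest run of A in capitals: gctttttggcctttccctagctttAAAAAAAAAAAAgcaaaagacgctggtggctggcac
Rn18s-rs5, bases 1790 to 1849: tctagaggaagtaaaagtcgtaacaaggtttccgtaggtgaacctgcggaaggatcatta

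Levels of different genes were compared per length, in CPM per kilobase of exon. Rn18s-rs5 led the order, with 25946 ± 20453 (untreated), 21311 ± 3112 (early ND) and 6909 ± 6616 (late ND) CPM per kilobase (SD, n = 5 each). Malat1 was next in all groups, at 86.7 ± 28.2, 107 ± 37.7 and 167 ± 24.5 (SD, n = 5 each) per kilobase. The last places changed hands. Per kilobase, Rn7sk was at 34.6 ± 29.3, 18.3 ± 11.3 and 21.7 ± 5.62 and Neat1 at 10.8 ± 7.49, 10.7 ± 4.02 and 26.8 ± 6.62 (SD, n = 5 each). Those 2 neighbors in the order differed by less than the larger of their SDs in each group. For Rn7sk the length of 331 bases includes the copied bases. For Neat1 all 22397 annotated exon bases were used, and shorter transcripts were not considered.

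Rn18s-rs5 had the widest spread of the members, and that split between libraries is what put it in the set. Its levels were 105889, 766, 50301, 36565 and 46351 CPM in untreated mice 1 to 5. After early ND they were 36461, 35169, 47445, 34456 and 43494 CPM. After late ND they were 13402, 313, 521, 23673 and 25967 CPM. Libraries untreated 2, late 2 and late 3 lay far below the other 12, none of which was under 13402 CPM, and the early ND group held no such library. All late ND values lay below all early ND values, a separation toward lower CPM seen in 0.503% of the 13315 genes tested, from which nothing is read since the rule used these levels. Against untreated mice the late ND range overlapped. Between the lowest and highest library the CPM differed 338-fold, while counting error was small, with 95% Wilson intervals of at most ±3.06% of the value.

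The mitochondrial ribosomal RNAs mt-Rnr1 and mt-Rnr2, which are encoded in the mitochondrial genome and form the mitochondrial ribosome, were low in the same 3 libraries. mt-Rnr1 had 244, 99.9 and 409.6 CPM in untreated 2, late 2 and late 3, against 2600 to 9039 CPM in the other 12. mt-Rnr2 had 758, 378 and 951 CPM there and 6519 to 18602 CPM elsewhere. Of 13315 genes tested, 6 (0.0451%) were lower in all 3 libraries than in each of the other 12, and these were chosen for naming after their values were seen. Beside Rn18s-rs5, mt-Rnr1 and mt-Rnr2 they were Lars2, which encodes a mitochondrial leucyl-tRNA synthetase, Gm10300, a long noncoding RNA, and an identifier that did not match the annotation used (ENSMUSG00000118642). Lars2 had 18.1 to 35.7 CPM in the 3 libraries and 206 to 2350 CPM in the other 12. No exact match of 100 bases or more linked Lars2 to Rn18s-rs5. The search started from the members only, so likeness of Lars2 to other ribosomal RNAs was not examined. The depth of the 3 libraries was 10796099 to 13924361 gene counts, against 5527108 to 10929570, and their hemoglobin share was 17.5% to 31.6% against 14.9% to 64.1%. The part of library preparation, depth or blood composition in the split was not tested.

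**Figure D2:**
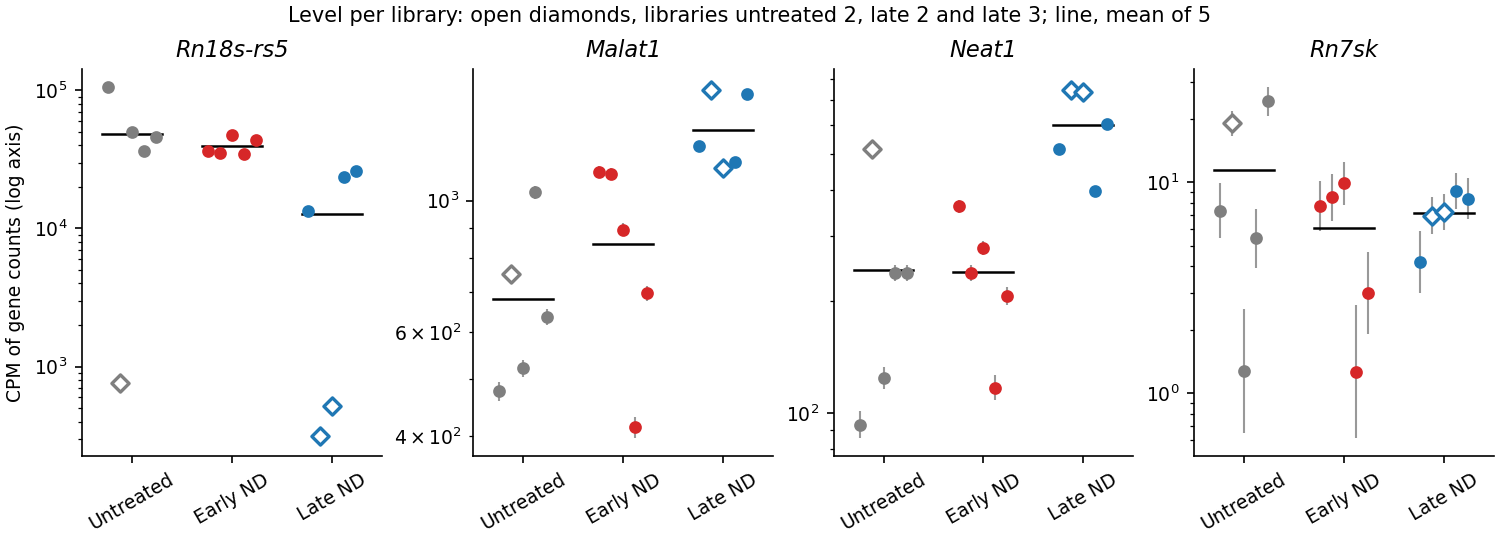
CPM of gene counts per library (log axes, whose ranges differ between panels) for the 4 members with counts, by group. Points are libraries with 95% Wilson intervals, black lines are arithmetic means of 5 libraries, and open diamonds are untreated 2, late 2 and late 3, which lie between 313 and 766 CPM for Rn18s-rs5 and within or above the other libraries for the remaining members.

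The 3 libraries did not stand apart for the other members. Rn7sk was at 6.95 to 19.1 CPM in them and at 1.27 to 24.2 CPM in the other 12, and Malat1 at 752 to 1534 CPM against 414 to 1513 CPM. Neat1 lay toward the top, at 518 to 746 CPM against 93.0 to 605 CPM. With hemoglobin genes left out of the denominator, Neat1 was at 758 to 912 CPM in the 3 libraries and at 232 to 727 CPM in the other 12. That separation toward higher values was shared by 4.30% of genes tested, and the denominator was chosen after the levels were known. With hemoglobin genes kept in the denominator, the T cell list was higher in the 3 libraries, at 460.3 to 636 CPM against 175 to 446 CPM. The B cell list lay at 2130 to 3986 CPM against 763 to 2251 CPM on that scale. The share of genes that separate toward higher values there was not computed, and the part of these lists in the Neat1 level was not tested. Classes of small RNAs were low everywhere: genes annotated as snRNA summed to 12.96 to 63.5 CPM, snoRNA to 13.3 to 59.7 CPM and misc_RNA, the class that holds Rn7sk, to 11.6 to 50.2 CPM.

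**Figure D3:**
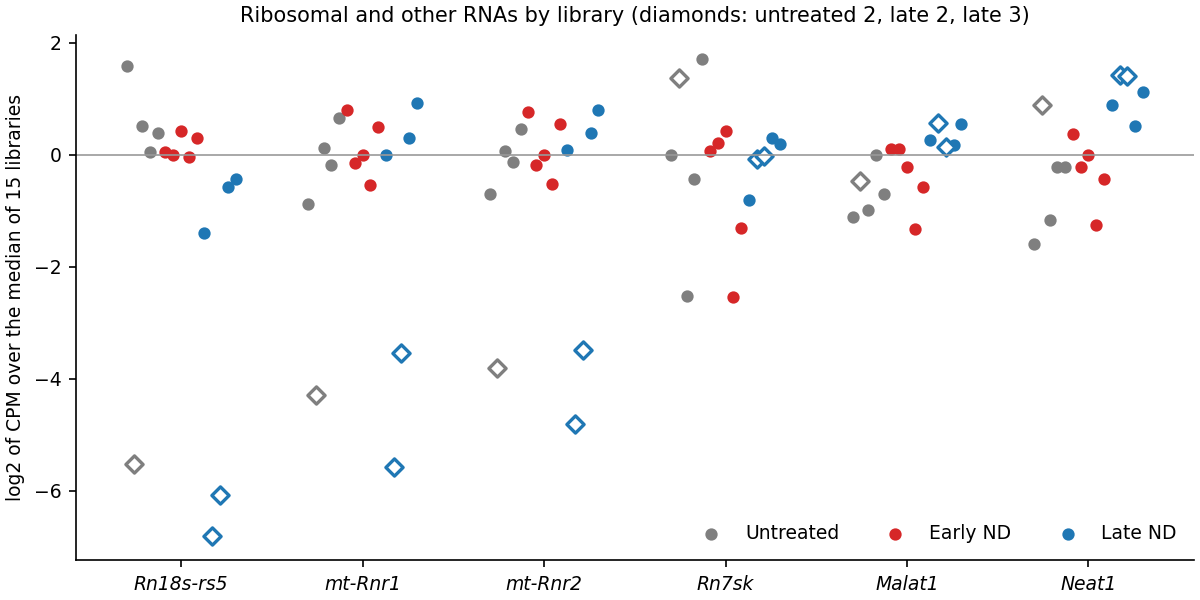
Log2 of the CPM over the median of all 15 libraries for 3 ribosomal RNAs and 3 other members. Points are libraries colored by group, and diamonds mark untreated 2, late 2 and late 3. The diamonds lie more than 3 log2 units below the median for Rn18s-rs5, mt-Rnr1 and mt-Rnr2 and among or above the other points for Rn7sk, Malat1 and Neat1.

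Among the libraries rich in 18S, the ribosomal RNAs did not move together. The count of both mitochondrial ribosomal RNAs was 0.835 to 1.196 times that of Rn18s-rs5 in late 1, late 4 and late 5. It was 0.310 to 0.722 times after early ND and 0.0861 to 0.479 times in untreated mice other than untreated 2. In untreated 2 it was 1.31, and in late 2 and late 3 it was 1.53 and 2.61.

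Over the 15 libraries Malat1 varied the least of the members with counts in relative terms, 3.70-fold between lowest and highest, although within early ND it varied 2.696-fold and Rn18s-rs5 only 1.38-fold. It had 477, 752, 521, 1032 and 636 CPM in untreated mice 1 to 5. After early ND it had 1117, 1108, 894, 414 and 697 CPM, and after late ND 1234, 1534, 1133, 1164 and 1513 CPM. Every late ND library lay above every early ND and every untreated library on this scale. A separation toward higher CPM held for 38.5% of genes tested in late against early ND and for 24.9% in late ND against untreated, so it was not particular to Malat1. Group means were 683 ± 222 CPM (untreated), 846 ± 297 CPM (early ND) and 1316 ± 194 CPM (late ND), each with its SD over 5 mice. After TMM scaling, which sets libraries to a common level over most genes, the means were 879 ± 270, 956 ± 161 and 859 ± 99.3 CPM (SD, n = 5 each), and the groups overlapped.

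Gm37376, a 453-base gene of the provisional class TEC, lies wholly opposite Malat1 and was counted in every library. It took 41.4 to 148 CPM, which was 9.01% to 11.1% of the Malat1 count, and per base 1.57 to 1.93 times as many counts as Malat1 on average. The share barely moved between groups or with the split in 18S. Since Gm37376 lies wholly within Malat1 and had counts, lying opposite another exon did not by itself set its reads aside. Without the strand setting of the counting and the kit, reads of Malat1 and of its antisense partner cannot be told apart. Gm55521, inside Malat1 on the same strand, had 0 counts.

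Neat1 was higher after late ND than in most other libraries. It had 93.0, 518, 124, 239 and 239 CPM in untreated mice 1 to 5, 362, 238, 278, 117 and 207 CPM after early ND, and 516, 746, 736, 398 and 605 CPM after late ND. All late ND values lay above all early ND values, and 3 of 5 lay above every untreated value, of which untreated 2 was the highest. On this scale the separation of late above early ND was shared by 38.5% of genes tested. Group means were 243 ± 168 CPM (untreated), 240 ± 90.1 CPM (early ND) and 600.4 ± 148 CPM (late ND), each with its SD over 5 mice. After TMM scaling the late ND values of 322 to 450 CPM still lay above the early ND values of 222 to 308 CPM, a separation toward higher values that 4.84% of genes tested shared. Untreated values of 212 to 392 CPM overlapped both. On CPM of gene counts the neutrophil list, whose sums are given above, was also higher in each late ND than in each early ND library. So was the monocyte list, at 1304 to 1753 CPM against 318 to 756 CPM. Of genes tested, 38.5% separated in this direction on that scale, and the part of these lists in the Neat1 level was not tested. Frmd8os, which lies opposite 412 bases of Neat1, stood at 1.44 to 8.15 CPM or 0.665% to 2.20% of the Neat1 count. The 3 misc_RNA genes inside Neat1 (Gm55523, Gm55524 and Gm55525) had 0 counts.

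The ratio of the Malat1 count to the Neat1 count needs no scaling, and was added after both levels were known. It was 5.13, 1.45, 4.19, 4.32 and 2.66 in untreated mice 1 to 5. After early ND it was 3.09, 4.65, 3.21, 3.54 and 3.37, and after late ND 2.39, 2.06, 1.54, 2.92 and 2.502. All late ND ratios lay below all early ND ratios. The 3 libraries poor in 18S held the lowest ratios of all 15, at 1.45 to 2.06, and the late ND libraries rich in 18S lay between 2.39 and 2.92. The ratio was not tested. How many other gene pairs separate these libraries in the same way was not examined, so the separations are not read as particular to Malat1 and Neat1.

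**Figure D4:**
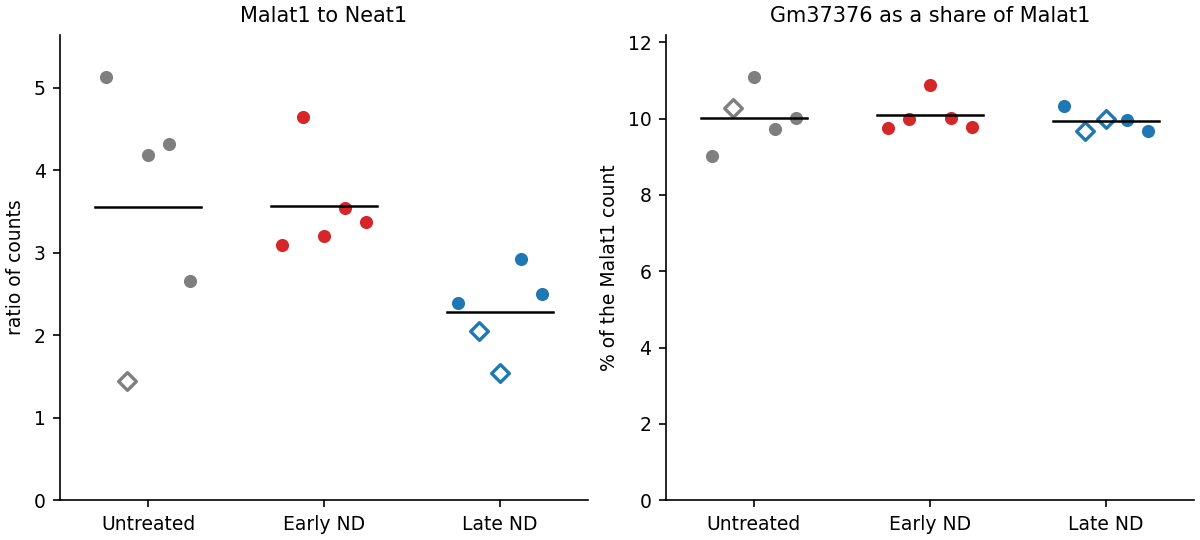
Left, the Malat1 count over the Neat1 count per library. Right, the Gm37376 count as a percentage of the Malat1 count. Points are libraries by group, lines are means of 5, and diamonds mark untreated 2, late 2 and late 3. The ratio runs from 1.45 to 5.13 with the diamonds lowest, whereas the Gm37376 share stays between 9.01% and 11.1%.

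Rn7sk was counted in all libraries but rested on few reads. It had 7.33, 19.1, 1.28, 5.43 and 24.2 CPM in untreated mice 1 to 5, 7.70, 8.47, 9.89, 1.27 and 2.98 CPM after early ND, and 4.20, 6.95, 7.25, 9.06 and 8.37 CPM after late ND. The lowest values, in untreated 3 and early 4, came from 8 and 7 counts and the highest from 151 counts in untreated 5 and 206 in untreated 2. The 95% Wilson intervals reached ±13.7% to ±79.0% of the value. The 3 groups overlapped. Group means were 11.5 ± 9.70 CPM (untreated), 6.06 ± 3.73 CPM (early ND) and 7.17 ± 1.86 CPM (late ND), each with its SD over 5 mice.

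The groups were compared by edgeR's quasi-likelihood test with TMM scaling and Benjamini-Hochberg adjustment over all genes tested, 5 mice a group. Of the 6 members 4 passed the filter on low counts. No test is given for Rn18s-rs5, and of the other 3 (Rn7sk, Malat1 and Neat1) 0 passed an adjusted p of 0.05 in any of the 3 comparisons. Over all genes, 4.98% were called in late against early ND, 3.0% in late ND against untreated and 0% in early ND against untreated, where 256 genes were higher and 283 lower at an unadjusted p under 0.05. DESeq2 called 0 in that comparison and library totals in edgeR called 3. The labels name no batch. The p-values set group differences against the spread between libraries of different mice, in which mouse and library preparation cannot be told apart. Both late ND comparisons share the late ND libraries, and both comparisons with untreated mice share the untreated libraries.

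Neat1 had a log2 fold change of 0.49 (SE 0.14) in late against early ND, with an adjusted p of 0.0627 by edgeR. Against untreated mice the log2 fold change was 0.49 (SE 0.18, edgeR adjusted p = 0.183), and early ND against untreated gave 0.02 (SE 0.18, edgeR adjusted p = 0.997). DESeq2's Wald test called Neat1 in late against early ND (log2 fold change 0.45, adjusted p = 0.00449), and without untreated 2 edgeR called it in late ND against untreated (0.66, adjusted p = 0.0453). Those fits called 1439 of 13315 and 338 of 13650 genes. Without the 3 libraries poor in 18S the late against early ND value was 0.34 (SE 0.15, edgeR adjusted p = 0.204).

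Malat1 had log2 fold changes of -0.19 (SE 0.16) in late against early ND, -0.08 (SE 0.22) in late ND against untreated and 0.13 (SE 0.23) in early ND against untreated, with edgeR adjusted p of 0.539, 0.908 and 0.968. Library totals in place of TMM turned the first 2 to 0.64 and 0.95 (edgeR adjusted p = 0.0457 and 0.0267), in fits that called 9060 of 13315 and 7574 of 13547 genes. Under library totals the median over all genes tested shifted to 0.86 and 0.91 on the log2 scale, and relative to those medians Malat1 lay at -0.22 and 0.04. Neat1 under library totals lay 0.46 and 0.40 above the same medians.

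For Rn7sk the log2 fold change was -0.52 (SE 0.32) in late against early ND, -1.48 (SE 0.45) in late ND against untreated and -0.94 (SE 0.49) in early ND against untreated, with edgeR adjusted p of 0.367, 0.107 and 0.938. DESeq2's Wald test called it lower in late ND against untreated (log2 fold change -1.49, adjusted p = 0.0227), as did edgeR without a filter on low counts (-1.44, adjusted p = 0.0484). Those fits called 808 of 13547 and 462 of 28562 genes. Under library totals the Rn7sk value in late against early ND turned to 0.24, below the median of all genes. Rn18s-rs5, given without a test because its split between libraries put it in the set, had log2 fold changes of -2.46 (SE 1.02), -3.29 (SE 1.39) and -0.80 (SE 1.00) in the same order. Without the 3 libraries these were -1.75 (SE 0.55), -2.89 (SE 0.87) and -1.12 (SE 0.71).

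**Figure D5:**
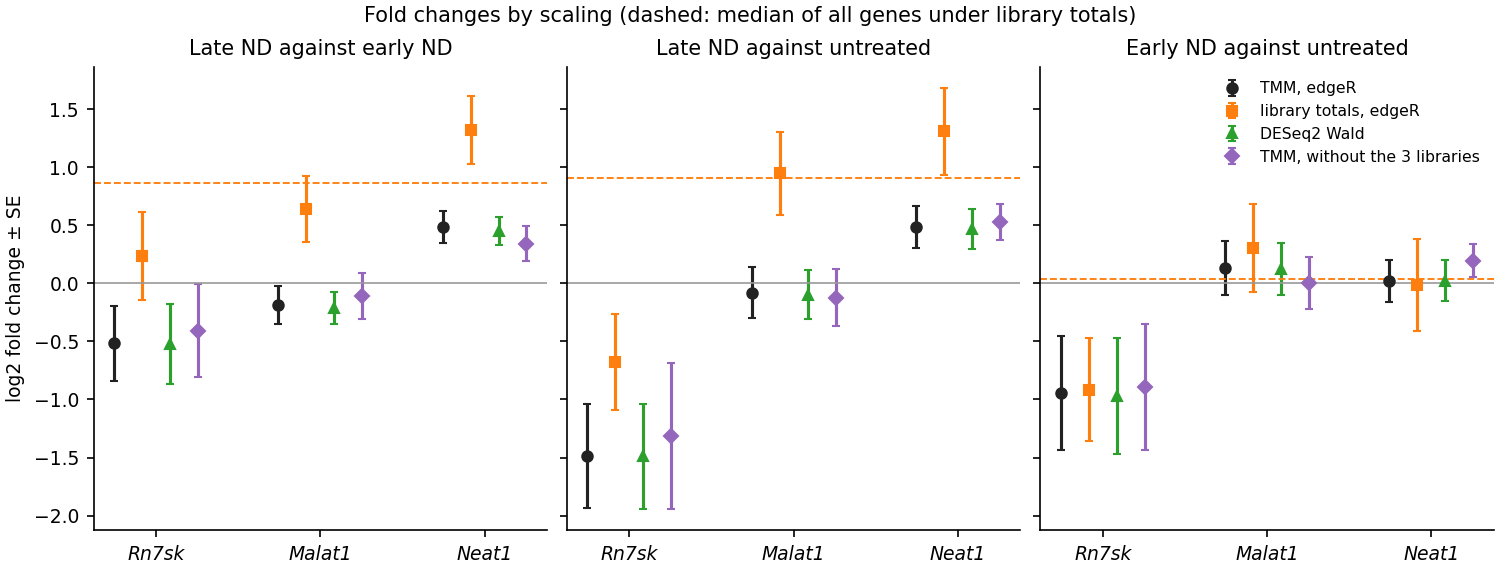
Log2 fold changes of Rn7sk, Malat1 and Neat1 with standard errors in the 3 comparisons, under edgeR with TMM, edgeR with library totals, DESeq2's Wald test and edgeR without untreated 2, late 2 and late 3. Dashed lines are the median of all genes under library totals, at 0.86, 0.91 and 0.04. Malat1 changes sign between TMM and library totals in both late ND comparisons.

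Genes that work with the members were given by lists. Of 11 paraspeckle proteins, the partners of Neat1, 11 were tested and 0 were called in any comparison. Their median log2 fold change was -0.07 in late against early ND, beside 0.01 over all genes, and 0.07 in late ND against untreated, beside 0.00235. The 9 nuclear speckle proteins and the 7 proteins of the 7SK particle and P-TEFb likewise had 0 calls, with medians of 0.02 and 0.03 in late against early ND. Of 11 RNase P and RNase MRP proteins 10 were tested in the late ND comparisons, with 0 called and medians of -0.12 and -0.13. The 16 genes of RNA polymerase I and ribosomal RNA maturation had 0 calls and medians of -0.17 and -0.15, and 3 and 4 of them were lower at an unadjusted p under 0.05, beside 9.33% and 8.28% of all genes tested. Against untreated mice 1 of them was higher at that level.

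Replication-dependent histone genes, whose mRNAs end without a poly(A) tail, were listed because such RNAs also depend on the library preparation. Of 67 genes 19 were tested in each late ND comparison, with a median log2 fold change of -0.54 against early ND and -0.52 against untreated. In late against early ND 0 were called and 9 were lower at an unadjusted p under 0.05, and 11 were lower at that level against untreated, beside the same shares of all genes. Against untreated mice 1 was called, H2bc4, a histone H2B gene, at -0.57 (SE 0.13, edgeR adjusted p = 0.0340), where 2.01% of all genes were called lower. H2bc4 had 244 ± 39.9 CPM after late ND and 193 ± 87.1 CPM in untreated mice (SD, n = 5 each), so its direction is the opposite on library totals (0.34). The call was lost without the 3 libraries poor in 18S (edgeR adjusted p = 0.178), without a filter on low counts (edgeR adjusted p = 0.0938) and in 9 of 10 fits that each left out 1 library (edgeR adjusted p over all 10 from 0.0291 to 0.0925). The list medians above are after TMM scaling. On CPM of gene counts the summed histone level was instead highest after late ND, at 681 ± 115 (SD, n = 5). It was 553 ± 210 after early ND and 512 ± 203 in untreated mice (SD, n = 5 each). Summed histone CPM was 637 to 816 in the 3 libraries poor in 18S and 294 to 863 in the other 12.

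Of 81 other ribosomal RNA and rDNA-like symbols, 75 were in the tables, 68 of them at 0 in all libraries, and 3 were tested. mt-Rnr1 and mt-Rnr2 were not called in any comparison. Gm15564 was lower in late against early ND by a log2 fold change of -1.54 (SE 0.29, edgeR adjusted p = 0.0178), where 2.48% of all genes were called lower. It was also lower against untreated (-2.42, SE 0.60, edgeR adjusted p = 0.0486). It was at 3.22 ± 0.838 CPM after late ND, 4.97 ± 1.17 CPM after early ND and 7.11 ± 5.02 CPM in untreated mice (SD, n = 5 each), and it was not among the genes low in the 3 libraries. Without those libraries neither call was made (edgeR adjusted p = 0.0561 and 0.161). With 1 library left out, the call against untreated was lost in 8 of 10 fits (edgeR adjusted p up to 0.112), and without untreated 1 the log2 fold change was -1.44. The call against early ND was lost without early 4 (edgeR adjusted p = 0.0530) and with library totals (-0.62, edgeR adjusted p = 0.112).

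Of 27 other RNA polymerase III and small structural RNAs, 25 were in the tables and 17 were at 0 in every library. None passed the filter on low counts, and none of these exceeded 0.470 CPM in any library. They include the Y RNAs, the signal recognition particle RNAs Rn7s1 and Rn7s2, the telomerase RNA Terc and the vault RNA Vaultrc5. Of 28 other long noncoding RNAs 25 were tested, with medians of -0.05 and -0.12 in the late ND comparisons. Oip5os1 alone was called, lower in late against early ND by -0.73 (SE 0.16, edgeR adjusted p = 0.0301), although its CPM was 298 ± 33.1 after late ND and 262 ± 45.9 after early ND (SD, n = 5 each), and library totals gave 0.19. Without the 3 libraries its edgeR adjusted p was 0.0895, and the call was lost in 6 of 10 fits that each left out 1 library.

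The genes with the most similar profile to each member were sought among 9454 genes averaging 50 counts or more, by the root mean square difference of centered log2 CPM over the 15 libraries. For Malat1 the nearest were Gm37376, at 0.069, and the zinc finger genes Zfp949 and Zfp84, at 0.206 and 0.209, while the median gene lay at 0.413. For Neat1 they were Aldh16a1, Mast3 and Fchsd1, at 0.152, 0.153 and 0.156, against a median of 0.409. Rn18s-rs5 had Lars2 at 0.781, the unmatched identifier named above at 1.04 and mt-Rnr1 at 1.13, against 3.06. Rn7sk had no close neighbor, with Crim1, Ccdc107 and Zfp771 at 0.648, 0.668 and 0.689 against a median of 0.993. These likenesses share libraries and depth with the members, and without the 3 libraries 1 of 3 nearest genes was kept for Rn18s-rs5 and Malat1, 2 for Rn7sk and 0 for Neat1.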

How the data were processed

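RNA of whole blood was sequenced from 15 mice (5 untreated, 5 early ND, 5 late ND), and groups were taken from the labels. Per the labels the authors aligned paired reads with STAR 2.7.9 to GRCm39, sorted them with SAMtools 1.7 and counted them per gene with HTSeq 0.13.5. The deposited values are raw counts per gene, without normalization. The annotation release, the strand setting and the counting mode are not given in the sources used here. The last rows of each file, which name no gene, were left out of library sizes.

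Identifiers were matched to GENCODE M39 on GRCm39 (54749 of 55416). CPM were computed over gene counts. Intervals (95%, Wilson) and the floor of 3 counts cover counting error only. The 3 pairs of groups were compared in R 4.3.3 with edgeR 4.0.16 (filterByExpr, TMM, quasi-likelihood test, Benjamini-Hochberg adjustment over all genes tested), tested on simulated data. DESeq2 1.42.0, other scalings, no filter, hemoglobin genes left out, a replicate block and left-out libraries were the alternatives. Exact copies of at least 100 bases were searched with BLAST 2.17.0.

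The members, the lists and the named libraries were chosen with earlier results of these data known. The rule for named genes took the members, genes that overlap them, the 3 nearest genes and at most 4 called genes per list and comparison, by lowest p. Named list genes were recomputed under the alternatives after their calls were known. Gene counts ranged from 5527108 to 13924361 per library, which makes counting error small beside the spread between mice for all members with counts but Rn7sk.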

Additional observations from a re-analysis of the deposited data

Results flagged for a closer look

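The Malat1 to Neat1 count ratio of library early 2 was 4.65, apart from the other 4 early ND libraries, whose highest ratio was 3.54. Its gap to the nearest library was 0.712 of the range of the group, just above Dixon's 95% critical value of 0.71 for 5 libraries. It was 1 such library among 21 groups examined, and chance gives about 1 in 20.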

How the results depend on the processing

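Counts of called genes moved with the processing, and the cause was not tested beyond what each setting changes. Genes called in late against early ND were 663 (333 higher, 330 lower), and 9060 (8923 and 137) with library totals, 1439 (769 and 670) with DESeq2's Wald test, 1282 (886 and 396) without a filter, 539 (201 and 338) with DESeq2 size factors, 588 (238 and 350) without hemoglobin genes and 4 without the 3 libraries poor in 18S. In late ND against untreated 406 (134 and 272) became 7574 (7484 and 90), 808 (274 and 534), 462, 392, 397 and 0, the last with 956 higher and 961 lower at an unadjusted p under 0.05. Early ND against untreated gave 0, and 3 with library totals. Members called were 0, but 3 in both late ND comparisons with library totals, 1 and 2 with DESeq2, and 1 without a filter in late ND against untreated. These counts include Rn18s-rs5, from whose calls nothing is read, and without it they were 2 and 2 with library totals, 1 and 1 with DESeq2 and 1 without a filter. Beside them, library totals called 9060 of 13315 and 7574 of 13547 genes. DESeq2 called 1439 and 808 of the same totals, and edgeR without a filter called 462 of 28562.

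Leaving out 1 library gave 145 to 1610 genes in late against early ND (431 without early 1, 353 without early 2, 1610 without early 3, 151 without early 4, 297 without late 1, 145 without late 3, 198 without late 4, 246 without late 5), 0 to 593 in late ND against untreated (157 without untreated 1, 0 without untreated 3, 199 without untreated 4, 0 without late 1, late 4 or late 5, 1 without late 2, 9 without late 3) and 0 in early ND against untreated. Members called ranged from 0 to 1, the latter being Neat1 without untreated 2, where 338 of 13650 genes were called.

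Directions reversed with library totals for Neat1 in early ND against untreated (-0.013), Malat1 (0.64 and 0.95 in the late ND comparisons), Rn7sk (0.24) and Oip5os1 (0.19) in late against early ND and H2bc4 in late ND against untreated (0.34). Leaving out 1 library, Neat1 in early ND against untreated ranged from -0.047 to 0.20, Malat1 in late ND against untreated from -0.21 to 0.051 and Rn18s-rs5 in early ND against untreated from -1.12 to 0.12.

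Mice with the same number did not deviate together in every pair (correlations of -0.18 to 0.46, 0.03 to 0.58 and -0.24 to 0.08), and 2, 5 and 0 of 10 libraries correlated best with their own number. A replicate block gave 673, 607 and 0 genes, and turned Rn18s-rs5 in early ND against untreated to 0.21. Group mean CPM moved by more than 1 SD in 33 values under other settings, against 20 that did not. Leaving out 1 of 5 libraries cannot move a mean by 1 SD. Nothing is therefore read from the 60 such values, all of which stayed within it. Settings for Gm15564, Oip5os1 and H2bc4 and the Malat1 to Neat1 ratio were added after the data were seen. Depth limits Rn7sk most, with 7 to 206 counts per library.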
